A study of Mus musculus with 30 samples.

Results

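The genes described are 32 genes of cholesterol and fatty acid synthesis, out of 54146 genes in the deposited count table. They were chosen by name, as genes that the SREBP transcription factors are known to drive, and not by a rule on measured values. Earlier results of these data were known when the choice was made. They form 3 groups: 18 enzymes of sterol synthesis, 10 enzymes that make, elongate or desaturate fatty acids or supply their precursors, and 4 regulators and carriers (Srebf1, Srebf2, Insig1 and Stard4). All 32 had a row in the table, and 31 had enough reads to enter the tests over fractions and the test of treatment on summed fractions. Scd1, a stearoyl-CoA desaturase, passed the filter on low counts in no comparison, and Idi1, an isopentenyl diphosphate isomerase, failed it in F1, F2, F4 and F5 taken singly.

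The study asked how epithelium along the crypt-villus axis of the small intestine responds to ICZ, the indole compound indolo[3,2b]carbazole, which activates the AHR (aryl hydrocarbon receptor). Female C57BL/6 mice (C57B6/J in the protocol), 8 to 10 weeks old and without any genetic change in the labels, were all fed the semi-purified diet AIN93G, which lacks AHR ligands, for 1 week. ICZ mice were then gavaged with 10 µg of ICZ in corn oil, and vehicle mice with the oil. At 12 h the epithelium was released by successive EDTA steps into fractions F1 to F5, and 3′ end libraries were made from each. The 3 ICZ mice are represented by 14 libraries, since F1 of ICZ mouse 3 was not analysed here, and the 3 vehicle mice by 15. The labels call the 3 mice of a treatment biological replicates, and the 5 fractions of a mouse come from 1 animal. The labels do not say which part of the axis a fraction holds.

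Sterol synthesis joins acetyl units into mevalonate, builds the chain squalene from it, closes this to lanosterol, and trims lanosterol to cholesterol. SREBP2, the product of Srebf2, mainly drives these genes, and SREBP1, the product of Srebf1, mainly drives fatty acid synthesis. Both proteins are held in the endoplasmic reticulum by INSIG proteins while sterols are plentiful, and are cut and sent to the nucleus when sterols run low. In the small intestine sterol synthesis goes on beside uptake of dietary and biliary cholesterol, which the absorptive cells of the villus carry out.

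Depth ran from 4359673 to 7819837 gene reads per library (median 6351137, 29 libraries). The 32 genes together took between 0.0794% and 0.165% of these reads, with a median of 0.137%. The lowest share was that of the F5 library of ICZ mouse 1, where 54.3% of gene reads fell on its top 10 genes (median of all libraries 26.8%). The epithelial markers Epcam, Cdh1, Vil1, Krt8, Krt19 and Cldn7 had reads in every library. Cyp1a1, the classical AHR target, had between 53 and 596 reads in ICZ libraries and 0 or 1 read in vehicle libraries. The adipocyte marker Adipoq was at 0 in all libraries, and Plin1, Lep, Cfd and Retn had 6, 1, 1 and 8 reads over all of them, while Cidec, at 12.0 to 50.2 CPM, was present throughout. Levels are given as CPM (counts scaled to library size with edgeR's TMM factors), and levels of different genes are not set against each other.

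Upstream sequences were read for all of the genes that have one in the table used, and 4 are shown. RefSeq promoter windows (GRCm38.p6, 250 bases before to 50 after a start site) were found for 25 of the 32 genes. Searched on both strands, the NF-Y box CCAAT lay in the windows of 14 of 15 sterol enzymes (93.3%), of 4 of 7 fatty acid enzymes (57.1%) and of 41.1% of the 27025 genes in the table. The GC box GGGCGG lay in windows of 80.0% of the 25 genes and 38.2% of all genes, the E-box CACGTG in 20.0% and 8.09%, and the AHR response core GCGTG in 60.0% and 35.2%. The sterol regulatory element searched, TCACNCCAC, was found in 1 of the 25 (Hmgcs1) and in 1.44% of all genes. The 250 bases before the start site are shown for Mvk and Fasn, which rose over the fractions in both treatments, for Sc5d, which fell in both, and for Hmgcs1, which holds the sterol regulatory element and whose slope did not pass. Mvk lies at chr5:114444019-114444268 on the plus strand, Hmgcs1 at chr13:119690101-119690350 on the plus strand, Fasn at chr11:120824548-120824797 on the minus strand and Sc5d at chr9:42264301-42264550 on the minus strand. Capitals mark CCAAT on either strand (ATTGG where it lies on the other one) and, in Hmgcs1, the sterol regulatory element. The motifs are matches of letters in these windows and not measured sites.
Mvk: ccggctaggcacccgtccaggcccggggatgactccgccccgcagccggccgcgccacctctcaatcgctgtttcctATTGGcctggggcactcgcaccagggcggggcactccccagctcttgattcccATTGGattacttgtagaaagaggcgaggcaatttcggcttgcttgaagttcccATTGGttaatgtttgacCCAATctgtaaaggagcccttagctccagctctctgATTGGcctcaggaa
Hmgcs1: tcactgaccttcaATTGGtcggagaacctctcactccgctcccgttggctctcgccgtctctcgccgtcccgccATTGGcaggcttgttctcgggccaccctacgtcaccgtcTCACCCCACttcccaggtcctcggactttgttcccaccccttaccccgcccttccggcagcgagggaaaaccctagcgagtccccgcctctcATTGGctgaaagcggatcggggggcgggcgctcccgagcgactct
Fasn: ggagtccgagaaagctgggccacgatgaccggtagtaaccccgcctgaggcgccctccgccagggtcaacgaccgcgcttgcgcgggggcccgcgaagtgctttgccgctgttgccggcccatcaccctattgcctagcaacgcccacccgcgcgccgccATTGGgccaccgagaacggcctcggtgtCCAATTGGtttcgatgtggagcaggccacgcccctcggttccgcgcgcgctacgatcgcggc
Sc5d: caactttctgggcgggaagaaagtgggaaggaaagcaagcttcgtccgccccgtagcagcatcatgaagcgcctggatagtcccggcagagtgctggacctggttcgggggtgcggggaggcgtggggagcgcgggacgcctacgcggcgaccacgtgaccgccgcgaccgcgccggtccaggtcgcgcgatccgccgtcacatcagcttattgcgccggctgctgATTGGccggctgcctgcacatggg

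Over the order of release in vehicle mice, genes of both arms had rising slopes, and 1 enzyme had a falling one. Of the 31 tested, 14 rose, 1 fell and the others did not pass in edgeR's quasi-likelihood test of the slope over fraction number, with the mouse as a block and p adjusted over all 13164 genes tested. The same test called 18.3% of all genes higher and 16.7% lower towards F5. Among the risers were 8 of 18 sterol enzymes, 5 of 9 fatty acid enzymes and Srebf2. The median slope, in log2 units per fraction, was 0.09 over the sterol enzymes and 0.11 over the fatty acid enzymes, against 0.01 over all genes. A rising slope does not show that a level was highest in the last fraction. By group means, 13 of the genes described were highest in F5 and 12 in F4. The mean log2 CPM of the sterol arm was 4.70 in F4 and 4.73 in F5, and that of the fatty acid arm 3.74 and 3.66. Fewer cells of a type in a fraction and less RNA of a gene per cell cannot be told apart in such bulk samples.

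**Figure D1:**
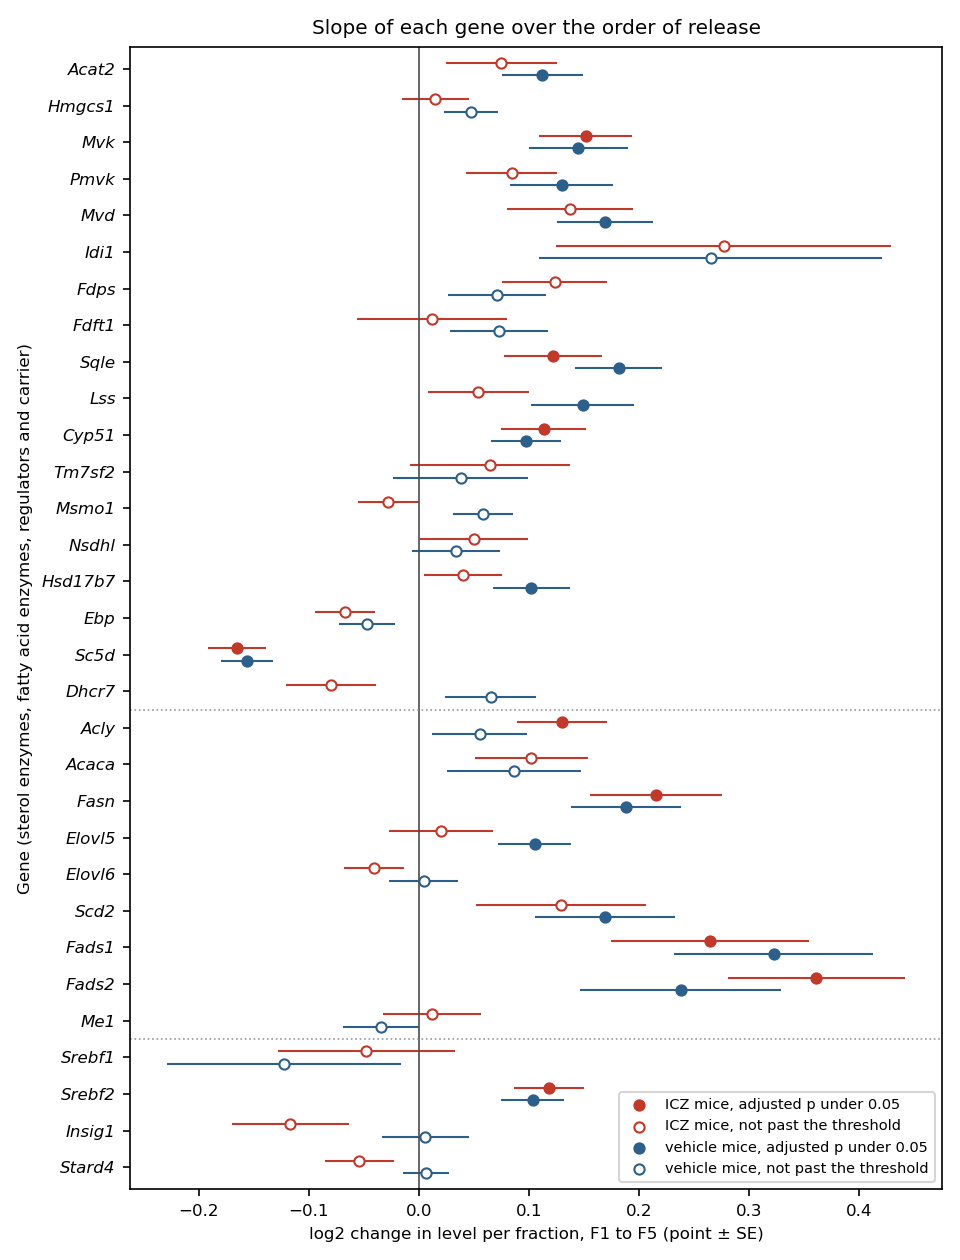
Slope of each of the 31 tested genes over fractions F1 to F5 (log2 change in level per fraction, point ± SE, horizontal axis), for ICZ mice (red, 14 libraries) and vehicle mice (blue, 15 libraries), with filled points for an adjusted p under 0.05. Most points of both arms lie right of 0, Sc5d lies left of it in both treatments, and Srebf1, Insig1 and Stard4 have no filled point.

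The first steps, from acetyl units to farnesyl diphosphate, are run by Acat2, Hmgcs1, Mvk, Pmvk, Mvd, Idi1 and Fdps. Mvk, the mevalonate kinase, stood at 21.1, 18.8 and 19.7 CPM in F5 of vehicle mice 1, 2 and 3, against 16.1, 9.66 and 11.9 CPM in F1. All 3 F5 libraries lay above all 3 F1 libraries. The slope was 0.15 ± 0.05 (SE; adjusted p = 0.0175), and the log2 fold change of F5 over F1 was 0.68 ± 0.19 (adjusted p = 0.0123). Mvd, the mevalonate diphosphate decarboxylase, stood at 23.8, 20.2 and 27.2 CPM in F5 and at 20.2, 10.9 and 14.1 CPM in F1, with the F1 library of mouse 1 level with the lowest F5 library. It rose by 0.17 ± 0.04 per fraction (adjusted p = 0.00547). Pmvk, the phosphomevalonate kinase, and Acat2, the acetoacetyl-CoA thiolase, rose by 0.13 ± 0.05 and 0.11 ± 0.04 per fraction (adjusted p = 0.0363 and 0.0236). Hmgcs1, the HMG-CoA synthase and the second enzyme of the pathway, had 139.5, 165 and 172 CPM in F5 and 149, 134 and 134 CPM in F1. Its groups overlapped, and its slope of 0.05 ± 0.02 did not pass (adjusted p = 0.146). Fdps, the farnesyl diphosphate synthase, and Idi1 had slopes of 0.07 ± 0.04 and 0.27 ± 0.16 that did not pass either (adjusted p = 0.226 and 0.197), and Idi1 never exceeded 2.66 CPM in a library.

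The steps from farnesyl diphosphate to lanosterol are run by Fdft1, Sqle and Lss. Sqle, the squalene epoxidase and a control point of the pathway, had 38.1, 36.6 and 40.9 CPM in F5, against 31.6, 16.9 and 26.2 CPM in F1. No F5 library overlapped the F1 libraries. Its slope of 0.18 ± 0.04 (adjusted p = 0.00165) passed under each of the 8 alternative settings tried for it. Lss, the lanosterol synthase, had 12.7, 9.84 and 10.1 CPM in F5 and 7.06, 5.54 and 8.35 CPM in F1, again with no overlap. It rose by 0.15 ± 0.05 per fraction (adjusted p = 0.0181), a call lost under 4 of 8 alternatives. Fdft1, the squalene synthase, had a slope of 0.07 ± 0.04 that did not pass (adjusted p = 0.214). Fdft1 overlaps Ctsb and Lss overlaps 4930483K19Rik on the opposite strand. Without a stated strand setting it is not known whether the reads of such pairs were kept apart. Whether the overlaps reach the 3′ ends that were read was not checked. The same holds for Hmgcs1, Idi1, Mvd, Acaca, Elovl6 and Me1, each of which has an annotated gene on the opposite strand.

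The trimming of lanosterol is run by Cyp51, Tm7sf2, Msmo1, Nsdhl, Hsd17b7, Ebp, Sc5d and Dhcr7, and here the genes parted. Cyp51, the lanosterol demethylase, had 70.2, 72.8 and 76.1 CPM in F5 and 72.0, 43.85 and 54.6 CPM in F1. Only vehicle mouse 1 had its F1 library above a library of F5, and the slope was 0.10 ± 0.03 (adjusted p = 0.0234). Cyp51 overlaps Akap9 on the opposite strand. Hsd17b7, the sterol ketone reductase, had 29.2, 32.7 and 32.4 CPM in F5 and 23.5, 20.3 and 24.3 CPM in F1, without overlap, and its slope was 0.10 ± 0.03 (adjusted p = 0.0287). That call was lost under 4 of 8 alternatives. Sc5d, the lathosterol desaturase near the end of the pathway, went the other way. Its level fell to 99.4, 103 and 74.25 CPM in F5, against 152, 145 and 122 CPM in F1. All F5 libraries lay below all F1 libraries. The slope was -0.16 ± 0.02 (adjusted p = 8.2e-05), and the log2 fold change of F5 over F1 was -0.60 ± 0.11 (adjusted p = 0.000898). Fitted mouse by mouse, the slope of Sc5d lay between -0.20 and -0.13 in all 6 mice. Ebp, the sterol isomerase that acts just before Sc5d, had slopes of -0.05 ± 0.03 in vehicle mice and -0.07 ± 0.03 in ICZ mice that did not pass (adjusted p = 0.165 and 0.0707), with a negative value in each mouse. Msmo1, Nsdhl, Tm7sf2 and Dhcr7 had vehicle slopes between 0.03 and 0.07, none of which passed.

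**Figure D2:**
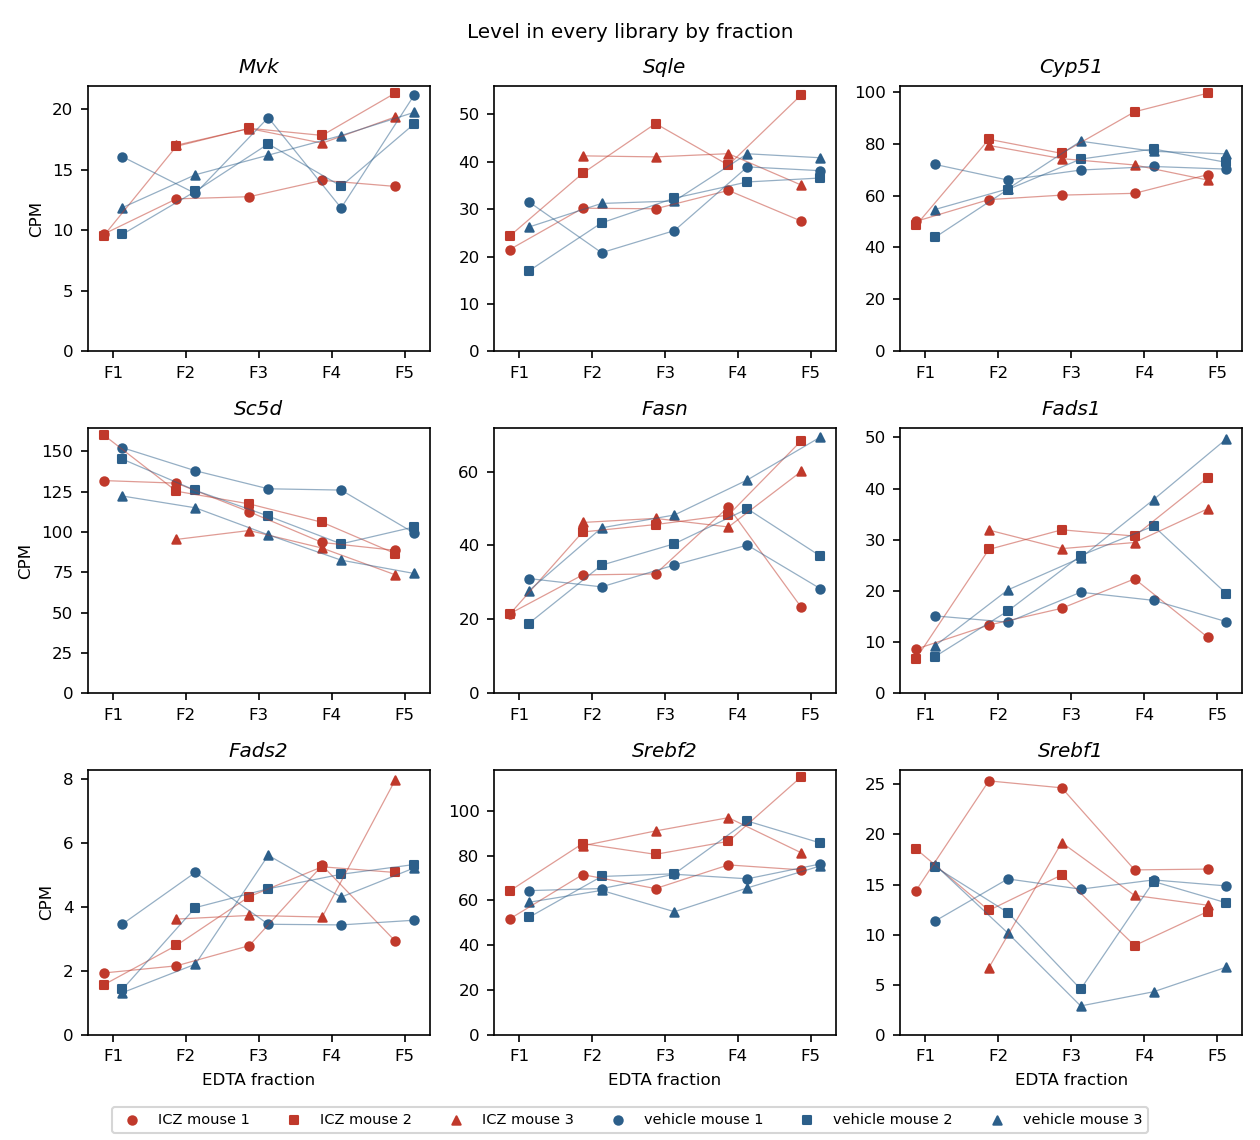
Level (CPM, vertical axis from 0) of 9 genes by EDTA fraction (horizontal axis) in every library, ICZ mice in red to the left and vehicle mice in blue to the right, with 1 symbol per mouse and lines joining the fractions of a mouse. In the Sc5d panel F5 lies below the first fraction measured in every mouse, and in the Fads1 panel F5 ranges from 10.9 to 49.7 CPM over the 6 mice.

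Among the fatty acid enzymes the desaturases Fads1 and Fads2, which make highly unsaturated fatty acids, had the steepest slopes. Fads1 had 13.96, 19.4 and 49.7 CPM in F5, against 15.1, 7.12 and 9.22 CPM in F1. The F5 libraries spread widely, and that of mouse 1 lay below its own F1 library. Fads1 rose by 0.32 ± 0.09 per fraction (adjusted p = 0.0133). Fads2 had 3.58, 5.32 and 5.21 CPM in F5 and 3.46, 1.425 and 1.32 CPM in F1, just without overlap, and a slope of 0.24 ± 0.09 (adjusted p = 0.0478). Fasn, which makes palmitate, had 28.3, 37.1 and 69.3 CPM in F5 and 31.0, 18.8 and 27.7 CPM in F1. Its groups overlapped through mouse 1, and it rose by 0.19 ± 0.05 per fraction (adjusted p = 0.00716). Elovl5, an elongase of unsaturated chains, rose by 0.11 ± 0.03 (adjusted p = 0.0195), and Scd2, a stearoyl-CoA desaturase, by 0.17 ± 0.06 (adjusted p = 0.0447). The call of Scd2 was lost under all 8 alternative settings tried for it, that of Fads2 under 5 of 8 and that of Elovl5 under 4 of 8. Scd2 had 5.91, 3.06 and 5.35 CPM in F5 and 3.05, 2.38 and 2.93 CPM in F1, with each F5 library above all of F1. Acaca, the acetyl-CoA carboxylase that commits carbon to the pathway, had 7.16, 7.18 and 12.5 CPM in F5 and 9.83, 6.49 and 7.91 CPM in F1. The groups of Acaca overlapped, and its slope of 0.09 ± 0.06 did not pass (adjusted p = 0.283). Acly, which makes cytosolic acetyl-CoA, Elovl6, the elongase of palmitate, and Me1, a source of NADPH, had slopes of 0.06, 0.00 and -0.03 that did not pass (adjusted p = 0.336, 0.928 and 0.472).

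Of the regulators, Srebf2 moved with the enzymes and Srebf1 did not. Srebf2 had 76.3, 85.7 and 75.4 CPM in F5, against 64.4, 52.4 and 59.15 CPM in F1 of vehicle mice. All F5 libraries lay above those of F1, and the slope was 0.10 ± 0.03 (adjusted p = 0.00828). Srebf1 had 14.9, 13.2 and 6.76 CPM in F5 and 11.35, 16.8 and 16.98 CPM in F1. The 2 groups overlapped, and in F3 Srebf1 stood at 14.5, 4.565 and 2.885 CPM. Its slope was -0.12 ± 0.11 (adjusted p = 0.402). Srebf1 overlaps Rai1 on the opposite strand, so the limit given above for Fdft1 and Lss holds for it as well. Insig1, which retains the SREBP precursors and is itself an SREBP target, had 21.3, 25.9 and 22.1 CPM in F5 and 21.9, 17.4 and 28.0 CPM in F1. Stard4, a cytosolic sterol carrier, had 159, 145 and 151 CPM in F5 and 156.5, 163 and 136 CPM in F1. Both overlapped fully and had slopes of 0.01 ± 0.04 and 0.01 ± 0.02 (adjusted p = 0.922 and 0.837).

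F5 against F1 alone, in the same vehicle fit, called 11 of the 31 genes, 10 higher and 1 lower in F5, where 14.9% of all genes were higher and 13.2% lower. All 10 were among the risers of the slope, which uses the same libraries. They were Mvk, Mvd, Sqle, Lss, Cyp51, Hsd17b7, Fasn, Fads1, Fads2 and Srebf2, with log2 fold changes between 0.38 ± 0.14 (Cyp51) and 1.26 ± 0.39 (Fads1). The call of Cyp51 in this comparison was lost under 6 of 7 alternatives, among them DESeq2 and other size factors, and that of Lss under 5 of 7. The counts depend on single mice. Without vehicle mouse 2 the comparison called 1 gene (Sc5d) and without vehicle mouse 3 it called 0, while the slope called 5 and 4. Calls over all genes fell too, from 3703 to 1929 and 886 for the comparison. For the slope they fell from 4610 to 3164 and 1794. With F1 left out, a choice made after seeing the data, the vehicle slope called 4 of the genes: Pmvk, Mvd, Sqle and Sc5d. That fit called 1776 of all 12911 genes.

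In ICZ mice, which share no library with the vehicle fit, 9 of the 31 genes passed the slope test, 8 higher and 1 lower towards F5, where 14.4% of all genes were higher and 15.8% lower. Mvk, Sqle, Cyp51, Fasn, Fads1, Fads2 and Srebf2 rose and Sc5d fell in both treatments, and Acly passed in ICZ mice, rising by 0.13 ± 0.04 per fraction (adjusted p = 0.0229). Fitted mouse by mouse, Mvk, Fasn and Fads1 had positive slopes in all 6 mice. In ICZ mouse 3, whose F1 is missing here, the slopes of Sqle (-0.07), Cyp51 (-0.08), Srebf2 (-0.007) and Acly (-0.006) were negative. In vehicle mouse 1 that of Fads2 was negative (-0.04). The difference between the treatments' slopes did not pass for Acly (0.10 ± 0.05, adjusted p = 0.846). The sign of the slope was the same in both treatments for 25 of the 31 genes. By group means in ICZ mice, 11 of the genes described were highest in F5 and 10 in F3. There the mean log2 CPM of the sterol arm was 4.72 in F3 and 4.63 in F5, and that of the fatty acid arm 3.74 and 3.80. Sc5d fell to 88.6, 86.6 and 73.45 CPM in F5 of ICZ mice 1, 2 and 3, against 132 and 160.3 CPM in F1 of mice 1 and 2. Its slope of -0.17 ± 0.03 (adjusted p = 0.000193) passed under all 9 alternatives tried. Fads2 had 2.935, 5.07 and 7.95 CPM in F5 and 1.93 and 1.56 CPM in F1, and rose by 0.36 ± 0.08 per fraction (adjusted p = 0.0027). Fasn had 23.2, 68.35 and 60.04 CPM in F5 and 21.5 and 21.4 CPM in F1, and rose by 0.22 ± 0.06 (adjusted p = 0.0126). In each of these 2 genes all F5 libraries lay above both F1 libraries. Sqle had 27.5, 54.15 and 35.1 CPM in F5 and 21.5 and 24.3 CPM in F1, and Srebf2 had 73.6, 115.2 and 81.25 CPM in F5 and 51.8 and 64.25 CPM in F1, also without overlap. Their slopes were 0.12 ± 0.04 and 0.12 ± 0.03 (adjusted p = 0.047 and 0.00876). Without ICZ mouse 2 Sc5d alone of these genes was called, with 1777 of all 14080 genes, against 4029 of 13328 in the full fit. Without F1 the genes called were Sc5d, Fads2 and Stard4, with 2781 of all 12722. Of these Stard4 fell as Sc5d did, from a mean of 172 CPM in F2 to 131 CPM in F5. With the F5 library of ICZ mouse 1 left out the count was 11, with 4820 of all 13271.

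**Figure D3:**
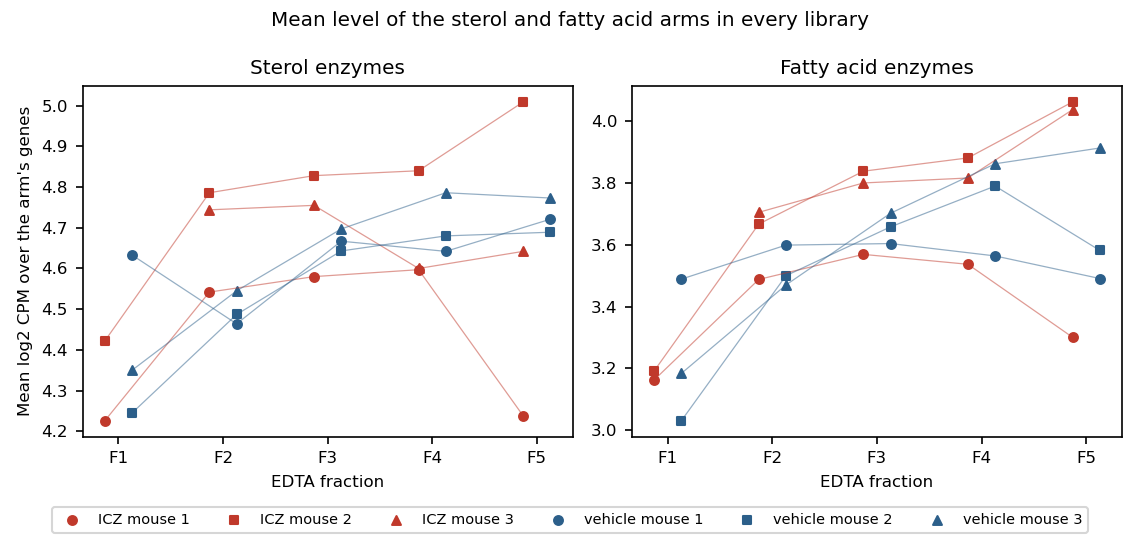
Mean log2 CPM over the genes of each arm (vertical axis) by EDTA fraction (horizontal axis), 1 point per library, ICZ mice in red to the left and vehicle mice in blue to the right, lines joining the fractions of a mouse. The sterol arm of ICZ mouse 1 drops to 4.24 in F5, against 4.64 to 5.01 in the other 2 ICZ mice, and the 4 lowest points of the fatty acid arm lie in F1.

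Markers of crypt and villus cells changed over the same fractions. Summed over 8 proliferation genes, levels lay between 699 and 1259 CPM in F5 and between 291 and 361 CPM in F1 of ICZ mice, and between 740 and 1212 CPM in F5 and between 282 and 566 CPM in F1 of vehicle mice. The slope passed upwards for 7 of these 8 genes in each treatment. The 9 markers of absorptive enterocytes summed to 10690 to 16360 CPM in F5 and 35630 to 37980 CPM in F1 of ICZ mice, and to 9440 to 19650 CPM in F5 and 27310 to 36480 CPM in F1 of vehicle mice, and 9 of them fell in ICZ mice and 8 in vehicle mice. Stem cell markers rose in 3 of 5 cases in ICZ mice and 5 of 5 in vehicle mice. Dissociation stress genes rose in 6 of 7 cases in ICZ mice and 7 of 7 in vehicle mice. T cell markers fell in 0 of 6 cases in ICZ mice and 4 of 6 in vehicle mice. In ICZ mice 4 of 4 stromal and 3 of 4 pancreas markers tested rose. In vehicle mice 0 stromal and 1 pancreas marker had enough reads to test. For ICZ against vehicle in F1, F2, F3 or F4 alone it was again 0 and 1, and in F5 it was 4 and 4. A rise towards F5 of genes that pass the filter through F5 was thus largely set in advance. Pancreas markers reached 741 CPM in F5 of ICZ mouse 3 and 1064 CPM in F5 of vehicle mouse 3, and stromal markers reached 110 CPM in an F5 library of ICZ mice. Adipoq, which defines adipocytes, was at 0. Cidec, the 1 marker of the adipocyte list with enough reads to test, fell in both treatments. Its slope was -0.29 in ICZ mice and -0.18 in vehicle mice. The part of these cell types in the slopes of the 32 genes was not tested.

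Other genes of the pathway, a list of 30 that are not among the 32, moved in both directions. Of 27 tested in vehicle mice 7 rose and 8 fell towards F5, and in ICZ mice 3 rose and 9 fell. Aacs, which activates acetoacetate for lipid synthesis, rose by 0.23 ± 0.06 per fraction in ICZ mice and 0.18 ± 0.06 in vehicle mice (adjusted p = 0.00741 and 0.0201). Scap, the SREBP escort, Mid1ip1, Elovl7 and Tecr passed upwards in vehicle mice. Npc1l1, Abca1, Abcg5 and Abcg8, which move sterols across membranes, went the other way in both treatments. Npc1l1, the cholesterol importer, fell by 0.23 ± 0.04 in ICZ mice and 0.24 ± 0.04 in vehicle mice (adjusted p = 0.00018 and 0.000105). Abcg8, a subunit of the sterol exporter, had slopes of -0.29 ± 0.03 and -0.22 ± 0.03 (adjusted p = 3.74e-06 and 9.15e-06). Its partner Abcg5, the exporter Abca1, the cholesterol esterifying enzyme Soat2, the oxysterol receptor gene Nr1h3, Insig2 and the citrate carrier Slc25a1 fell in both, and Elovl1 in ICZ mice.

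The effect of ICZ itself was tested on 1 sum per mouse of the reads in F2, F3, F4 and F5, the fractions measured in all 6 animals. None of the 31 genes tested passed in edgeR's quasi-likelihood test, 0 were under an unadjusted p of 0.05, and DESeq2 called 0. Over all 15497 genes the test called 0%, with 886 under an unadjusted p of 0.05, and Cyp1a1 did not pass either (adjusted p = 0.825). With mice of the same number as a replicate block, 231 genes passed, 0 of them among the 31. The median log2 fold change of ICZ over vehicle was 0.03 over the sterol enzymes and 0.02 over the fatty acid enzymes, against 0.01 over all genes. The smallest adjusted p among the genes was 0.846.

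Hmgcs1 had 145, 174 and 152 CPM in ICZ mice 1, 2 and 3, against 149, 161 and 166 CPM in vehicle mice, and a log2 fold change of -0.01 with a 95% interval of -0.22 to 0.20. Sqle had 31.2, 46.0 and 40.8 CPM in ICZ mice and 30.9, 33.7 and 37.1 CPM in vehicle mice. The groups of both genes overlapped, and that of Sqle differed by 0.22 with an interval of -0.10 to 0.53. Apart from Idi1, the 95% intervals of the sterol enzymes lay between -0.53 (Mvd) and 0.53 (Sqle). Fasn had 36.5, 53.6 and 50.95 CPM in ICZ mice and 33.6, 41.5 and 56.2 CPM in vehicle mice (0.10, interval -0.36 to 0.57). Acaca had 8.69, 11.3 and 11.4 CPM in ICZ mice and 9.09, 9.01 and 9.53 CPM in vehicle mice (0.19, interval -0.13 to 0.51). Scd2 had 3.00, 3.85 and 4.18 CPM in ICZ mice and 4.09, 2.63 and 4.84 CPM in vehicle mice (-0.06, interval -0.63 to 0.50). In these 3 genes too the ICZ and vehicle mice overlapped. Of the regulators, Srebf2 had 72.1, 95.4 and 90.1 CPM in ICZ mice and 72.2, 82.7 and 66.5 CPM in vehicle mice (0.22, interval -0.05 to 0.49). Srebf1 had 21.3, 12.5 and 13.5 CPM in ICZ mice and 15.4, 11.5 and 6.20 CPM in vehicle mice (0.52, interval -0.27 to 1.31). The groups overlapped in both, with 1 ICZ mouse inside the vehicle range for Srebf2 and 2 for Srebf1. Insig1 had 22.8, 20.4 and 14.2 CPM in ICZ mice and 21.85, 19.7 and 23.1 CPM in vehicle mice (-0.17, interval -0.56 to 0.22). Stard4 had 171, 166 and 152 CPM in ICZ mice and 165, 157 and 147 CPM in vehicle mice (0.07, interval -0.13 to 0.26). An interval that spans 0 does not show that ICZ left a gene as it was.

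**Figure D4:**
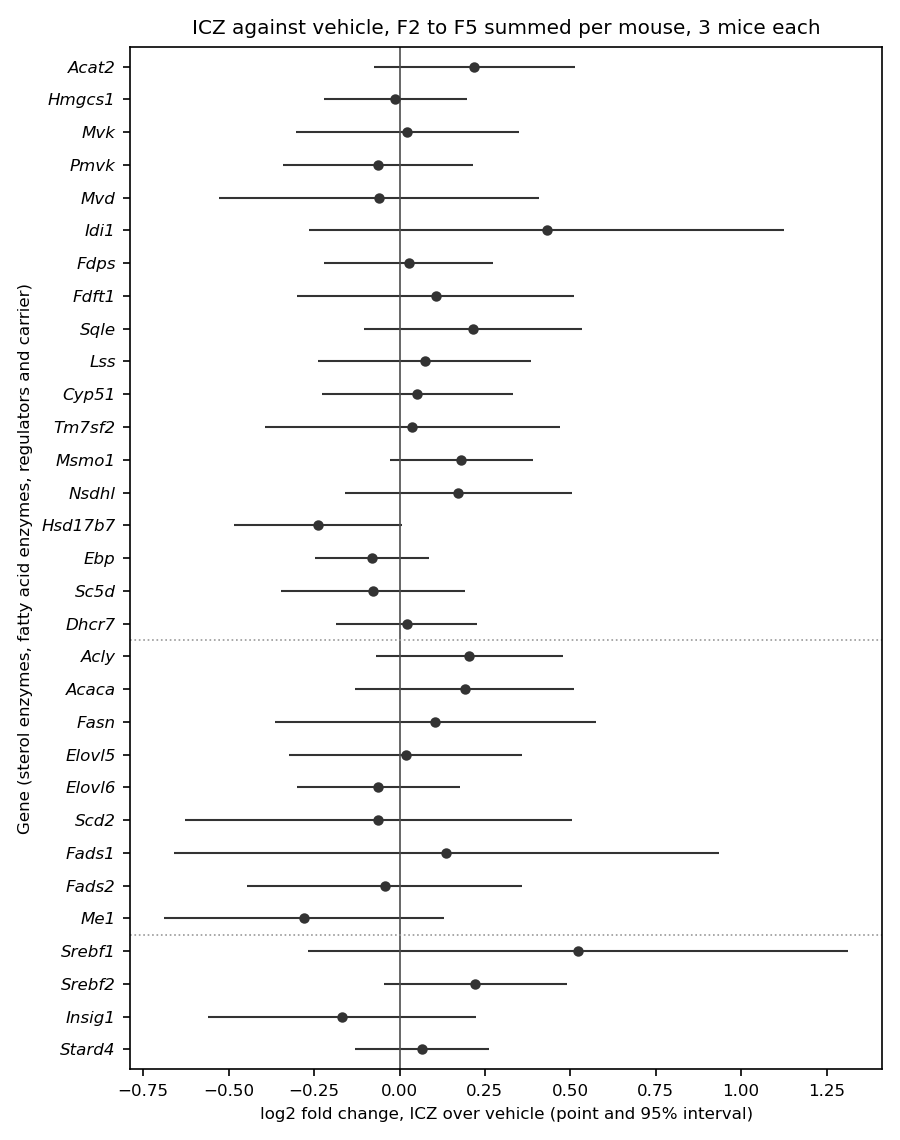
Log2 fold change of ICZ over vehicle (horizontal axis, point and 95% interval) for the 31 tested genes (vertical axis, grouped by arm), on F2 to F5 summed per mouse, 3 mice each. Every interval includes 0, and the widest are those of Fads1, Srebf1 and Idi1.

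In 2 genes all ICZ mice lay below all vehicle mice in the summed fractions, where this held for 6.25% of all genes, and in 0 all lay above, where it held for 5.12%. Ebp had 130.1, 139 and 135 CPM in ICZ mice and 144, 143.5 and 141 CPM in vehicle mice (-0.08, adjusted p = 0.903). Hsd17b7 had 20.8, 26.1 and 21.8 CPM in ICZ mice and 27.3, 26.2 and 27.7 CPM in vehicle mice (-0.24 ± 0.11, adjusted p = 0.846). For Hsd17b7, ICZ mouse 2 lay just below the lowest vehicle mouse. No marker gene passed in this comparison. All 8 proliferation genes and all 4 stromal genes tested had a positive log2 fold change of ICZ over vehicle, with medians of 0.26 and 2.93. Among single fractions the stromal genes had enough reads to test in F5 only. There the stromal markers summed to at most 110 CPM in ICZ and 7.75 CPM in vehicle libraries. Their sign was thus largely set by the filter. All 7 dissociation stress genes, all 6 T cell genes and all 4 pancreas genes had a negative one, with medians of -0.63, -0.52 and -0.50. Over F2 to F5 the summed proliferation genes lay between 610 and 1259 CPM in ICZ libraries and between 544 and 1212 CPM in vehicle libraries. The part of these in the values of the 32 genes was not tested.

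Within single fractions 0 of the genes passed in edgeR's test in any of F1 to F5, and DESeq2 called 0. Over all genes the test called 0.0324% in F1, 0.0165% in F2, 0.00815% in F3, 0% in F4 and 0% in F5. The genes called, named after their values were seen, were Cyp1a1, Tns4, Bco1 and Tmem86b in F1, Ikzf2 and Padi2 in F2, and Acta1 in F3. An unadjusted p under 0.05 was reached by 2 of 30 genes tested in F1, where 542 of all 12335 genes reached it, by 2 of 30 in F2 (1455 of 12115), 3 of 31 in F3 (1122 of 12268), 0 of 30 in F4 (349 of 12092) and 1 of 30 in F5 (342 of 12244). In F2 the share was below that of all genes, and the values that follow describe genes that did not pass. Msmo1, the sterol methyl oxidase, was under 0.05 in F2 and F3. It had 85.6, 99.2 and 97.5 CPM in F2 of ICZ mice, against 75.5, 73.4 and 66.4 CPM in vehicle mice, and 84.7, 96.35 and 89.3 CPM in F3, against 73.3, 68.3 and 72.8 CPM. All ICZ libraries lay above all vehicle libraries in both fractions, with differences of 0.34 ± 0.12 and 0.31 ± 0.11 (adjusted p = 0.309 and 0.437). In F1 the groups of Msmo1 overlapped, at 69.6 to 96.7 CPM in ICZ mice and 65.7 to 83.2 CPM in vehicle mice. They did so too in F4, at 72.3 to 100.4 and 67.0 to 91.1 CPM. F5 had 73.9, 94.7 and 70.8 CPM in ICZ mice and 84.1, 86.1 and 90.9 CPM in vehicle mice, again with overlap. Sqle was under 0.05 in the same 2 fractions, at 0.41 ± 0.18 and 0.39 ± 0.17 (adjusted p = 0.389 and 0.536). Srebf1 had 24.65, 15.96 and 19.2 CPM in F3 of ICZ mice and 14.5, 4.565 and 2.885 CPM in vehicle mice, without overlap (1.42 ± 0.56, adjusted p = 0.539). In F2 all 8 proliferation genes were also higher in ICZ mice on average, 7 of them at an unadjusted p under 0.05, and all 6 T cell genes lower; their part was not tested. In F1 Insig1 had 44.0 and 27.8 CPM in ICZ mice 1 and 2 and 21.9, 17.4 and 28.0 CPM in vehicle mice (0.68 ± 0.24, adjusted p = 0.995). Me1 had 8.38 and 13.4 CPM there in ICZ mice and 16.2, 21.2 and 13.6 CPM in vehicle mice (-0.61 ± 0.26, adjusted p = 0.995). Hsd17b7 had 17.3, 26.9 and 22.8 CPM in F5 of ICZ mice and 29.2, 32.7 and 32.4 CPM in vehicle mice, all higher in vehicle (-0.45 ± 0.19, adjusted p = 1.00).

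By counts, all ICZ libraries lay below all vehicle libraries in F1 for Hmgcs1 and Me1, 2 of 30, where 9.67% of all genes did. In F2 they lay above for Msmo1, Nsdhl, Acaca and Srebf2, 4 of 30, against 10.7% of all genes, and below for Ebp, 1 of 30, against 6.26%. They lay above in F3 for Msmo1 and Srebf1, 2 of 31, against 8.97%. Lower ICZ libraries were seen for Elovl5 in F4, 1 of 30 against 5.96%, and for Hsd17b7 in F5, 1 of 30 against 5.21%. A difference of the ICZ effect between fractions passed for 0 of 31 genes, with 0.00711% of all genes called for any difference and 0.0142% for a trend. An unadjusted p under 0.05 was reached by 1 of the 31 (Msmo1) for any difference, against 735 of all 14067 genes, and by 4 for the trend (Msmo1, Dhcr7, Acly and Insig1), against 794. DESeq2 called 0 of the 31 in both.

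Scd1 was close to the limit of detection. It had 15, 9 and 11 reads over all fractions of ICZ mice 1, 2 and 3, the last from 4 libraries, and 6, 1 and 2 reads over those of vehicle mice. The totals of 35 reads in ICZ mice and 9 reads in vehicle mice gave a ratio of 4.56 per gene read, with an exact 95% interval of 2.15 to 10.8 that covers counting error only and not the spread between mice. Reads were found in 12 of 14 ICZ libraries and 6 of 15 vehicle libraries. All 3 ICZ mice lay above all 3 vehicle mice, and no library held more than 6 reads. Among all genes tested in the summed fractions, 5.12% had all ICZ mice above all vehicle mice. With no filter on low counts, ICZ against vehicle called 0 of the genes described, in the summed fractions and in each of F1 to F5. Scd2, the neighbour of Scd1 on chromosome 19, showed no such difference. It was measured at 3.00 to 4.18 CPM in ICZ mice and 2.63 to 4.84 CPM in vehicle mice, as given above.

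Libraries of a group that were high in one of the genes tended to be high in others. After the mean of each treatment and fraction group was taken off, the median Pearson r of log2 CPM between 2 sterol enzymes was 0.39 over 29 libraries, and 128 of 153 pairs were positive. Between a sterol and a fatty acid enzyme the median was 0.34, with 142 of 180 pairs positive, and between 2 fatty acid enzymes 0.15, with 32 of 45 positive. Mvd (0.51), Nsdhl (0.48), Sqle (0.47), Cyp51 (0.47) and Mvk (0.46) had the highest mean r with the other sterol enzymes, while Sc5d (-0.07), Fdps (0.01) and Tm7sf2 (0.05) stood outside. Of the regulators, Srebf2 had a mean r of 0.37 with the sterol enzymes, Stard4 0.11, Insig1 -0.12 and Srebf1 -0.24. The points share 6 mice and their library sizes, and the values are descriptions. The median r and the share of positive pairs over all genes were not computed. These counts therefore do not set the 32 genes apart from other genes. The same deviations followed crypt markers: the mean of the sterol arm had r = 0.74 with that of the proliferation genes and -0.47 with that of the enterocyte markers, and the fatty acid arm 0.85 and -0.71. ICZ mouse 1 lay lowest, with mean log2 deviations of -0.17 for the sterol arm, -0.20 for the fatty acid arm and -0.21 for the proliferation genes.

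**Figure D5:**
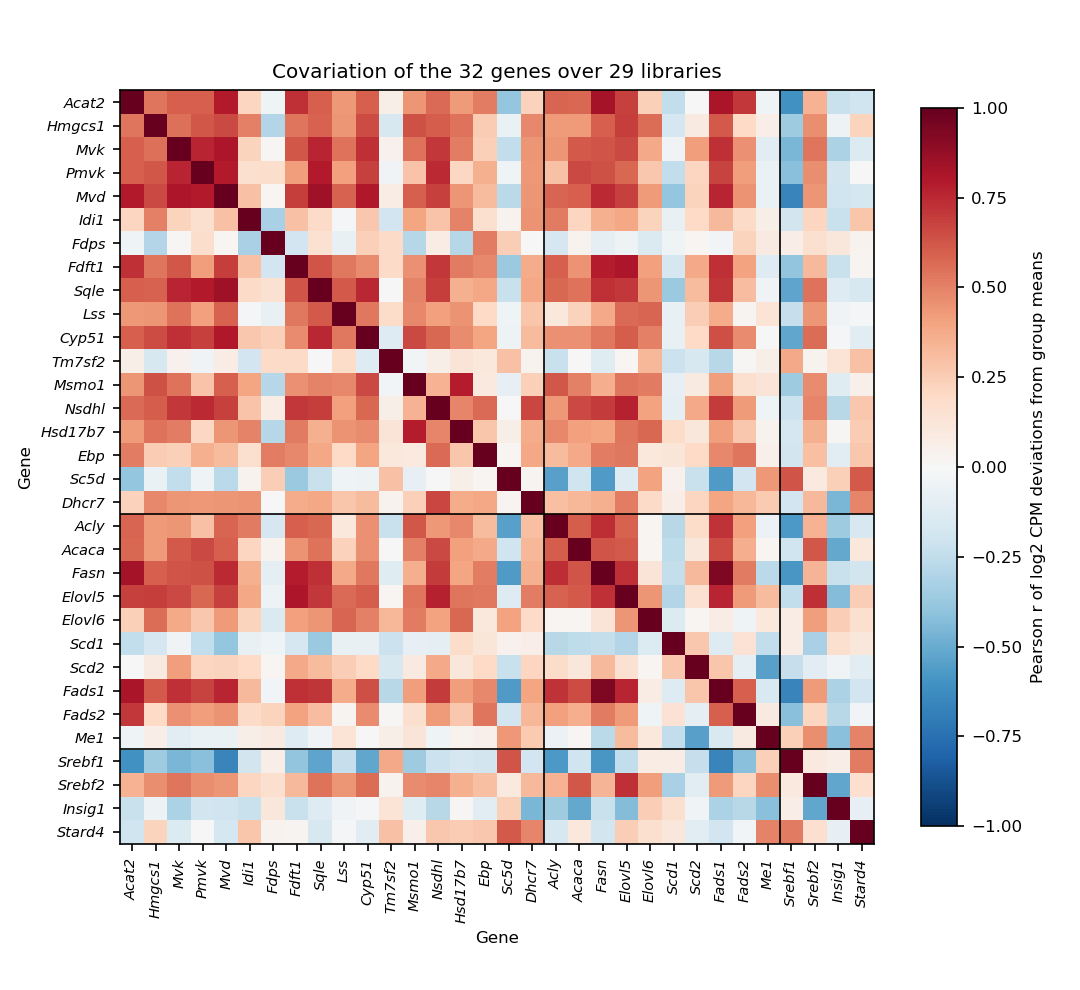
Pearson r between all pairs of the 32 genes (both axes, black lines parting sterol enzymes, fatty acid enzymes, and regulators and carrier) over 29 libraries, on log2 CPM after subtracting the mean of each treatment and fraction group, from -1 (blue) to 1 (red). The sterol block is mostly red apart from the rows of Sc5d, Fdps and Tm7sf2, and the row of Srebf1 is mostly blue.

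The genes outside the 32 that were most like the mean of the sterol arm over these deviations, among 8568 genes with at least 5 CPM on average, included Tmed10 (r = 0.89), Pdia6, Prdx6, Uqcrq, Pbxip1, Rpn2 and Aldoa (0.86). Those most like the fatty acid arm were Smarcd2 (r = 0.93), Uck2, Tk1, Racgap1, Pla2g2a, Wdr89, Slc7a1, Lbhd1, Npm1 and Dnmt1 (0.91).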

How the data were processed

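Whole-number read counts per gene of 30 libraries were taken as the authors deposited them, 29 of them assigned to a treatment and fraction by the labels. The submitters' processing notes name BWA 0.7.17-r1188, SAMtools 1.10, HTSeq 0.11.2, FastQC 0.11.2 and the builds GRCm38.p6 and mm10, and the strand setting of the counting is not given in the sources used here. The 5 summary lines of the table were left out, and 51.6% to 61.6% of counted reads fell on genes. Tests used edgeR 4.0.16 in R 4.3.3 (TMM, filterByExpr, robust quasi-likelihood fit, Benjamini-Hochberg adjustment over all genes tested, threshold 0.05), with DESeq2 1.42.0 as an alternative. The code was also run on simulated counts drawn without a mouse effect. That run does not show how the tests behave with the spread between these mice. Slopes and F5 against F1 had the mouse as a block; ICZ against vehicle had none. Log2 CPM used a prior count of 2. Deviations of same-numbered ICZ and vehicle mice correlated at 0.38, 0.25 and 0.47 in the summed fractions, although the labels do not say what a number shares. The main test of ICZ, with its log2 fold changes, intervals and p-values, did not use this pairing, and the replicate block was an alternative. The fit with the replicate block called 0 of the 32 genes. Values in each library or mouse are given for Hmgcs1, Sqle, Insig1, Srebf2, Srebf1, Stard4, Fasn, Acaca, Scd1, Scd2 and the genes that passed, up to 10 per comparison; others named with such values were chosen after they were seen. Also named are other pathway genes that passed and genes among the 10 most like each arm; some of these are not reported here. The genes and lists were chosen with earlier results of these data known. Precision is limited by 3 mice per treatment, and intervals on reads cover counting error only. A library of unknown treatment entered no comparison.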

Additional observations from a re-analysis of the deposited data

How the results depend on the processing

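The count of the 32 genes past the threshold was within 1.5 times its value under 92 alternatives and moved further under 12. A count of 0 that stayed at 0 was scored as within, and the tests of ICZ called 0 of the genes as reported. The number 92 therefore says little of the comparisons over fractions, which called 11 (F5 against F1), 15 (vehicle slope) and 9 (ICZ slope). With no filter on low counts the count was 7 for F5 against F1 in vehicle mice and 9 for the vehicle slope. It was 1 (Srebf1) for any difference of the ICZ effect between fractions. With F2 to F5 only, added after the data were seen, it was 4 for the vehicle slope and 3 for the ICZ slope. Leaving out 1 mouse at a time gave 0 to 12 genes for F5 against F1 in vehicle mice, 4 to 13 for the vehicle slope and 1 to 10 for the ICZ slope. Over all genes the same fits gave 886 to 4215, 1794 to 4407 and 1777 to 3463 calls. For ICZ against vehicle, leaving out 1 mouse gave 0 to 1 of the 32 genes in F2 and in F3. These were Fads1 in F2 without ICZ mouse 1, with 267 calls over all genes, and Srebf1 in F3 without vehicle mouse 1, with 498. With no replicate block the ICZ slope called 6. The log2 fold change of ICZ over vehicle changed sign for Hmgcs1 with F2 to F4 summed (0.022) and ranged, leaving out 1 mouse, from -0.098 to 0.029 for Hmgcs1, -0.33 to 0.0036 for Insig1, -0.057 to 0.33 for Fasn and -0.30 to 0.14 for Scd2. Over all genes, the summed fractions gave 0 calls, against 36 with no filter, 13 with DESeq2 and 231 with the replicate block, which changed no call of the 32 genes. F2 gave 2 calls, against 351, 124 and 221. The causes were not tested. Depth limits Scd1 and Idi1 most.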

Other observations

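A further library, labelled as undetermined with an unknown treatment, held 7484796 gene reads. The levels of all 32 genes in it lay within the range of the vehicle libraries. They were not set against the ICZ libraries, so they do not say which treatment the library had.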
